A study of Homo sapiens with 10 samples.

Results

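PC3 human prostate cancer cells that stably carried the hairpin named RNF2 shRNA1 were compared with PC3 cells that stably carried a Scramble hairpin, over all genes. The comparison used 4 of the 10 libraries of the series, 2 in each group, chosen by their labels. It concerns the group in which the messenger RNA of RNF2 was low. PC3 is an established line grown from a bone metastasis of prostate cancer that grows without androgens. All cells were grown in DMEM/F-12 that held 2 mM L-glutamine, fetal bovine serum at 10% and penicillin with streptomycin. The other 6 libraries, also of PC3 cells, were 2 labelled RNF2 shRNA2, 2 treated with PRT4165 for 48 hours and 2 treated with GW-516 for 48 hours. Those libraries entered the same fit, where they contributed to the estimate of the spread between replicates. PRT4165 is a small molecule known as an inhibitor of the ubiquitin ligase that RNF2 is part of, and nothing beyond its name is stated for GW-516. Whether the 2 libraries of each group were grown as separate cultures, or from separate clones, is not stated, so p-values cover the spread between these libraries alone and that spread may be technical.

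RNF2, also called RING1B, is with its paralog RING1 the catalytic subunit of Polycomb repressive complex 1 (PRC1), which attaches ubiquitin to histone H2A and keeps developmental genes silent. A RING subunit pairs with a PCGF subunit, such as BMI1 in the canonical form of the complex that also holds CBX and PHC proteins, or PCGF6 in variant forms that hold other partners. In prostate cancer the complex has been studied for its links to stemness, metastasis and the chemokine CCL2, which recruits macrophages. The gene programmes described here beside it are lipid synthesis under the SREBP transcription factors, the amino acid stress programme under ATF4, and the cell cycle programme under E2F factors.

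The deposited counts summed to 72015560 and 66126440 in the Scramble libraries and to 70116392 and 65877850 in the RNF2 shRNA1 libraries. Both mates of a read pair were counted, so each fragment could add 2 counts. Between the 2 libraries of a group, chi-square per degree of freedom over genes was 2.15 for Scramble and 2.19 for RNF2 shRNA1, or 1.08 and 1.09 when counts were halved. The libraries of each pair thus differed by little more than sampling noise. Results with each such pair summed to 1 sample are given for named genes that lost their call and for some lists. Counts of called members changed in other lists too, so a list count printed alone is not to be read as unaffected. The share of counts on mitochondrial genes was 2.48% and 2.51% in Scramble and 3.24% and 3.23% in RNF2 shRNA1. The 13 protein genes of the mitochondrial chromosome had a median log2 difference of -0.11 (from -0.50 to 0.25). Its 2 ribosomal RNAs had log2 differences of 0.11 and 1.04. The part of the mitochondrial share in the results below was not tested. Keratin 8 (KRT8, 123 and 123 counts-per-million, CPM, in Scramble; 106 and 107 in RNF2 shRNA1) and vimentin (VIM, 1109 and 1115; 1526 and 1521) were abundant in all 4 libraries. KLK3, which encodes prostate-specific antigen, had 0 counts in all 4. Of 16 markers of blood cells, 0 reached 1 CPM, 6 were at 0 counts (among them CD3E, CD4, MS4A1, HBA1 and GATA1), and the summed level was 1.19 and 1.00 CPM in Scramble against 1.22 and 1.11 in RNF2 shRNA1. Of 15 stromal and endothelial markers, CDH5 and PDPN were at 0, and the sum of 289 and 284 CPM in Scramble and 171 and 176 CPM in RNF2 shRNA1 was mostly the collagen gene COL1A2, which lies among the results below. The file headers carry the short name MDV3 where the labels say PC3.

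RNF2 was low in the RNF2 shRNA1 libraries and its paralog RING1 was not called different. RNF2 was at 30.6 and 28.3 CPM in Scramble and at 12.1 and 12 CPM in RNF2 shRNA1. Both hairpin libraries lay below both Scramble libraries, a 2.45-fold lower level (log2 difference -1.29, SE 0.059; edgeR quasi-likelihood test, adjusted p = 2.3e-15). Fewer cells expressing a gene and less RNA per cell cannot be told apart in these bulk libraries, here and in what follows. RING1, the other catalytic subunit, was at 13.6 and 14 CPM in Scramble and 12.9 and 12.8 CPM in RNF2 shRNA1 (log2 difference -0.10, SE 0.076; adjusted p = 0.27). The order was different in the libraries labelled RNF2 shRNA2: RNF2 stood at 33.5 and 35.3 CPM, and BMI1 at 53 and 61.6 CPM against 252 and 255 in Scramble and 232 and 230 in RNF2 shRNA1. BMI1 was 1.10-fold lower in RNF2 shRNA1 than in Scramble (adjusted p = 0.042), a call that was lost with the pairs summed (adjusted p = 0.33). Only 1 hairpin group had low RNF2, so effects of RNF2 loss and other effects of that hairpin cannot be told apart.

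**Figure D1:**
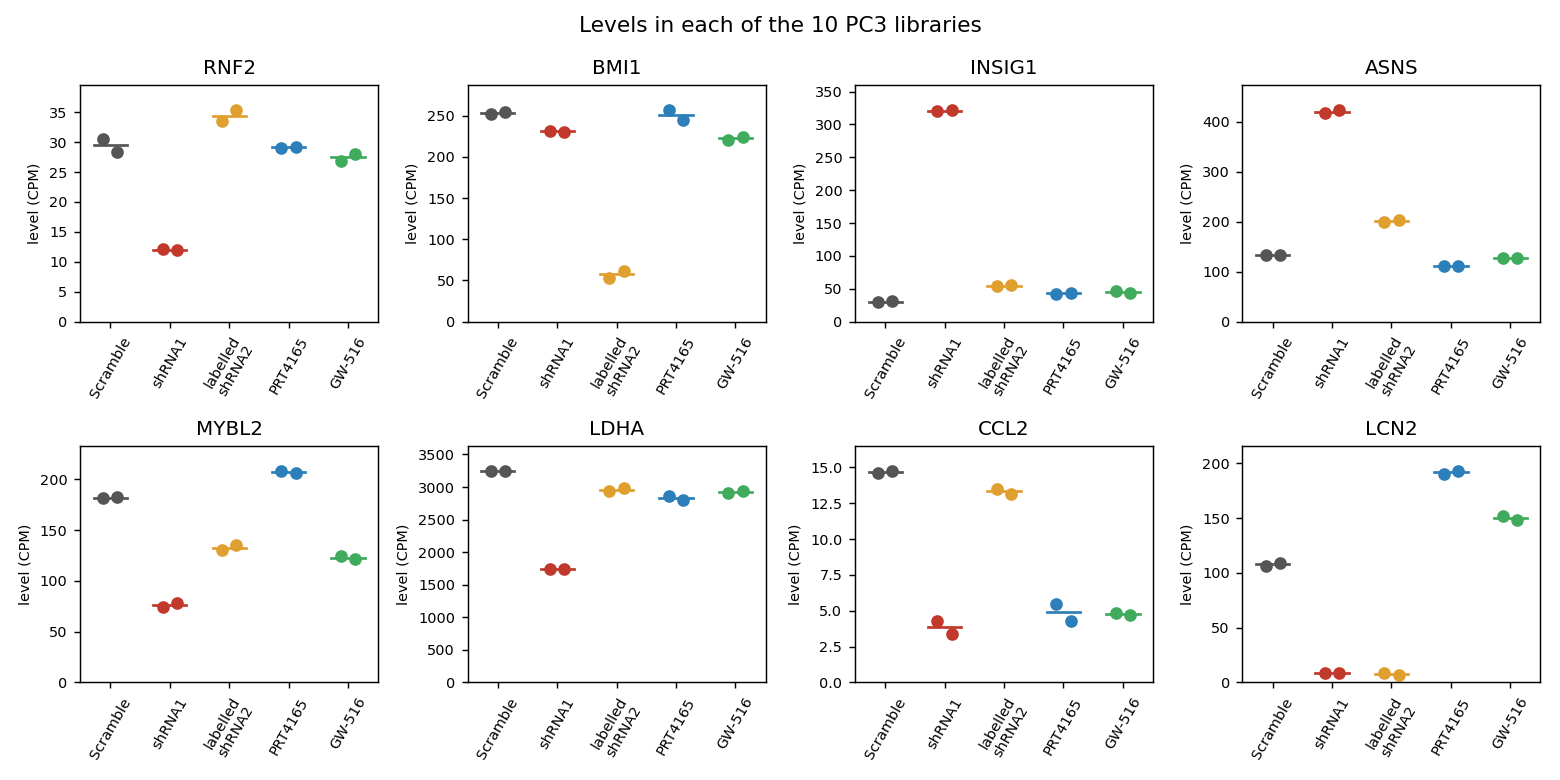
Level in CPM (vertical axes start at 0) of 8 genes in each of the 10 libraries, 1 point per library, with the mean of each group as a line. RNF2 was low in the RNF2 shRNA1 libraries only, at 12.1 and 12 CPM, BMI1 was low in the libraries labelled RNF2 shRNA2, and the INSIG1 and ASNS points of RNF2 shRNA1 lay above all other libraries.

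Among the partners of RNF2, subunits of variant PRC1 were lower in the RNF2 shRNA1 libraries more often than higher. Of all 18478 genes tested, 10112 (54.7%) were called different at an adjusted p below 0.05 in this comparison, 4834 higher (26.2%) and 5278 lower (28.6%), and the median log2 difference was -0.015; member counts below are read against these shares. Of 18 variant subunits tested, 13 fell and 2 rose, with a median log2 difference of -0.26. BCOR, a corepressor that joins one of the variant forms, was at 105 and 106 CPM in Scramble and at 69.5 and 67.8 CPM in RNF2 shRNA1, 1.53-fold lower (SE of the log2 difference 0.036; adjusted p = 3.3e-13). L3MBTL2, a subunit of the PCGF6 form, was at 56.1 and 53.8 CPM in Scramble and at 35.4 and 34.2 CPM in RNF2 shRNA1, 1.58-fold lower (adjusted p = 4.0e-12). PCGF6 itself was at 21.9 and 22.7 CPM in Scramble and at 12.3 and 11.7 CPM in RNF2 shRNA1, 1.86-fold lower (adjusted p = 1.5e-11). Both libraries of 1 group lay above both of the other for these 3 genes, as they did for 77.8% of all genes tested, so the lack of overlap says little by itself. TFDP1 and WDR5, which sit in the same variant complex and also act outside it, were each 1.47-fold lower. DCAF7, a scaffold of other variant forms, went the other way, from 236 and 240 CPM to 352 and 348 CPM (1.47-fold higher; adjusted p = 1.7e-14). Among the 11 CBX and PHC subunits of canonical PRC1, 3 rose and 3 fell: CBX8, a chromodomain reader, was 1.67-fold lower and PHC3, a polyhomeotic scaffold, 1.38-fold higher. Of 11 deubiquitinases and their cofactors that remove ubiquitin from H2A, 6 rose and 2 fell. MYSM1, one such protease, went from 49.9 and 49.4 CPM to 84.3 and 78.6 CPM, 1.64-fold higher (adjusted p = 1.1e-11). Among 12 PRC2 genes, 5 rose and 5 fell, and EZH2, the methyltransferase of PRC2, was lower (75.9 and 75.3 against 61.3 and 59.7 CPM; log2 difference -0.32, adjusted p = 2.4e-07).

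Changes of at least 2-fold were found in 801 higher genes (4.33% of those tested) and 782 lower genes (4.23%). The 30 largest increases ran from 3.48-fold to 10.5-fold and the 30 largest decreases from 3.02-fold to 29.2-fold, among genes whose mean reached 5 CPM in 1 group. Calls were more frequent where levels were higher: 20.4% of genes under 1 CPM were called and 77.3% of those above 100 CPM. Of 13542 protein-coding genes 64.9% were called, and of 2662 long non-coding genes 31%. Most genes on the lists below are well expressed, so their share of calls is to be set beside the shares at their level as well as beside 54.7%. Chromosome 2 had 440 higher and 280 lower of 1255 genes tested, and chromosome 16 had 161 higher and 303 lower of 842. Over all genes tested 26.2% were higher and 28.6% lower. These 2 had the highest and lowest median log2 difference of the nuclear chromosomes, 0.063 and -0.109. The part of chromosome position was not tested. With the pairs summed, 6957 of the 10112 calls were also made (68.8%); the spread then came from the libraries labelled RNF2 shRNA2 and those with PRT4165. Against PRT4165 53.2% of genes were called and against GW-516 61.4%, but these set a stable hairpin beside a compound, so values of those libraries are given side by side only.

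Enzymes of cholesterol synthesis rose along most of the pathway. Of 22 enzymes tested, 18 rose, 2 fell and 2 were not called, 13 rose at least 2-fold, and the median log2 difference was 1.16. HMGCS1, which makes HMG-CoA at the head of the pathway, was at 75.2 and 76.2 CPM in Scramble and at 474 and 480 CPM in RNF2 shRNA1, 6.31-fold higher (SE 0.033; adjusted p = 3.1e-26). Several steps that follow were higher too. MVD, which makes isopentenyl diphosphate, was 3.87-fold higher, and IDI1, the isomerase that acts next, 4.60-fold higher (25.2 and 26.3 against 119 and 118 CPM). FDFT1, squalene synthase, was 3.32-fold higher and SQLE, squalene epoxidase, 3.74-fold higher (118 and 115 against 437 and 437 CPM). Further down, DHCR7, the last step of one branch, went from 87.2 and 86.3 CPM to 198 and 192 CPM (2.25-fold higher). The 2 that fell were PMVK, phosphomevalonate kinase (44.8 and 44.2 against 35.1 and 34.7 CPM; 1.28-fold lower, adjusted p = 1.5e-06), and LBR, a nuclear envelope protein with sterol reductase activity (1.20-fold lower, adjusted p = 6.2e-06). TM7SF2, a second sterol C14 reductase, and EBP, the sterol isomerase, were not called (adjusted p = 0.27 and 0.75).

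Genes of sterol uptake and feedback were divided, with 8 higher and 8 lower of 21 tested; with the pairs summed 5 of the list were lower. INSIG1, which holds the SREBP complex in the endoplasmic reticulum when sterols are plentiful, had the largest increase of all genes ranked, from 29.6 and 31.5 CPM to 321 and 322 CPM. SREBF2, which encodes the SREBP factor of sterol genes, was at 132 and 130 CPM in Scramble and at 289 and 292 CPM in RNF2 shRNA1, 2.22-fold higher, and SREBF1, its paralog for fatty acid genes, was 1.42-fold higher. NPC1, which moves cholesterol out of lysosomes, was 2.52-fold higher (120 and 122 against 307 and 304 CPM), and STARD4, a cytosolic sterol carrier, 3.18-fold higher. Among the genes that fell, VLDLR, a lipoprotein receptor, went from 18.1 and 18.7 CPM to 8.13 and 8.58 CPM (2.20-fold lower; adjusted p = 7.3e-14), and SCARB1, the receptor for high-density lipoprotein, was 1.26-fold lower. ABCA1, which exports cholesterol and is a target of the liver X receptors, fell from 13.7 and 12.6 CPM to 3.62 and 2.85 CPM, 4.06-fold lower (adjusted p = 2.1e-15). NR1H2, which encodes one of those receptors, was 1.70-fold higher (57.4 and 57.4 against 98.0 and 97.5 CPM). Of 9 genes of these receptors and their targets 3 rose and 4 fell, with log2 differences from -2.02 to 1.57. Sterol genes in the libraries labelled RNF2 shRNA2 stood between the 2 groups or near Scramble: HMGCS1 at 110 and 111 CPM and SREBF2 at 139 and 134 CPM. Against those libraries, where 59.2% of genes were called, 18 sterol synthesis enzymes were higher in RNF2 shRNA1 (29.2% of all genes) and 3 were lower.

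Of 26 genes of fatty acid synthesis and desaturation 16 rose and 5 fell, with a median log2 difference of 0.21 and 3 increases of at least 2-fold. SCD, the desaturase that makes oleate, was at 334 and 337 CPM in Scramble and at 725 and 720 CPM in RNF2 shRNA1, 2.16-fold higher (adjusted p = 2.3e-20). ACSS2, which turns acetate into acetyl-CoA, was 2.46-fold higher (90.6 and 88.9 against 221 and 221 CPM). FASN, fatty acid synthase, went from 502 and 492 CPM to 949 and 925 CPM, 1.89-fold higher (adjusted p = 4.0e-05). ACACB, the mitochondrial acetyl-CoA carboxylase, fell 1.65-fold (17.9 and 18.6 against 11.4 and 10.7 CPM). CPT1A, the gate of fatty acid oxidation, also fell, from 140 and 137 CPM to 75.2 and 77.7 CPM (1.81-fold lower; adjusted p = 2.7e-16), whereas FABP4, a fatty acid carrier, was 2.08-fold higher and PPARD, a lipid-sensing receptor, 1.48-fold higher. Of 22 genes of PPAR receptors and fatty acid oxidation, 5 rose and 7 fell. A search of promoters for the sterol regulatory element, spelled TCACNCCAC on either strand, found it within 250 bases upstream of the start in 310 of 35114 RefSeq promoters (0.883%). None of the 17 sterol synthesis enzymes with a promoter in that table held these letters in that window. SREBF2 was 1 of 18 uptake and feedback genes that did, and MID1IP1, not called (adjusted p = 0.41), was 1 of 22 fatty acid genes. Of all 106 genes tested that held the element, 43 rose and 18 fell, with a median log2 difference of 0.16. Over all genes tested 26.2% rose and 28.6% fell. The shares among only those genes with a promoter in the table were not taken.

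**Figure D2:**
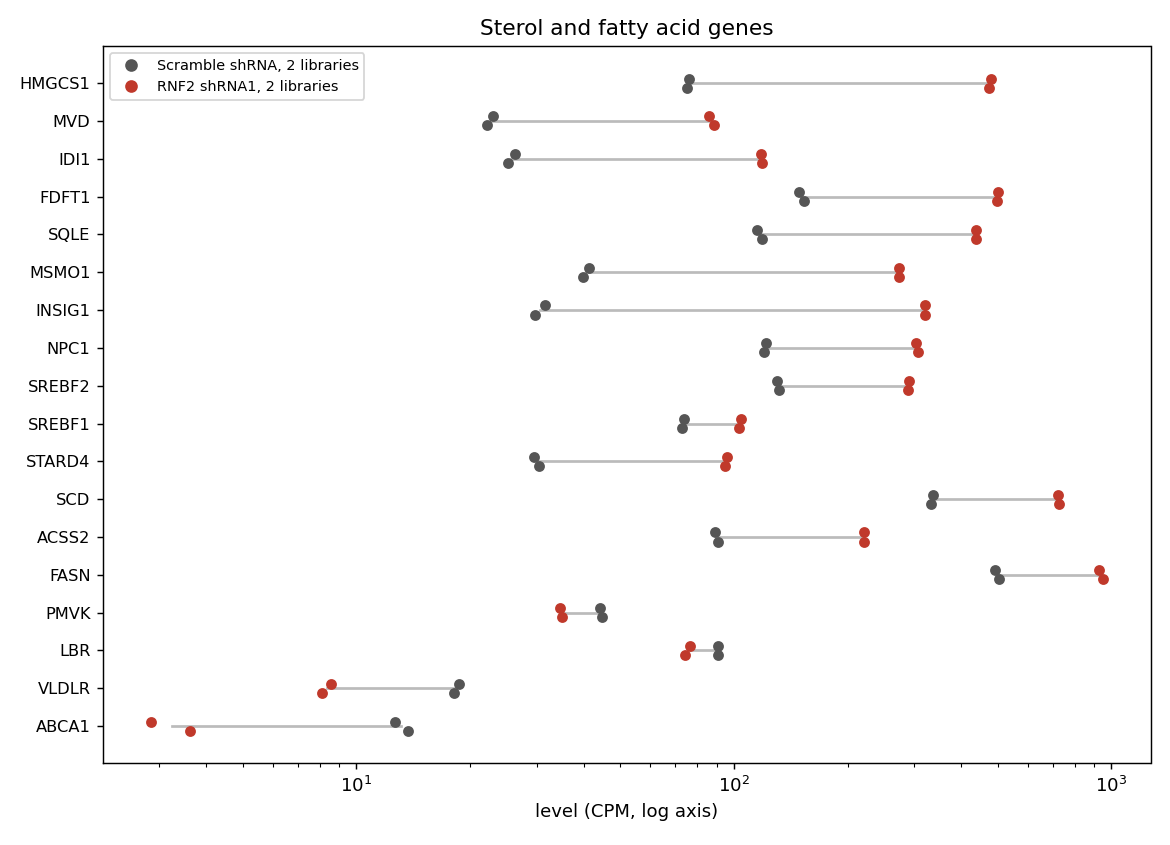
Level (CPM, log axis) of 18 sterol and fatty acid genes in the 2 Scramble libraries (grey) and the 2 RNF2 shRNA1 libraries (red), 1 point per library, with a line between the group means. Points of 1 group lie close together, and INSIG1 and MSMO1 show the widest gaps, whereas PMVK, LBR, VLDLR and ABCA1 moved to the left.

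ATF4 rose, and more genes on the lists of its programme rose than fell. Amino acid shortage and other stresses raise translation of ATF4, which then switches on amino acid synthesis, import and regulators of the stress response. ATF4 was at 197 and 192 CPM in Scramble and at 335 and 334 CPM in RNF2 shRNA1, 1.72-fold higher (SE 0.035; adjusted p = 5.7e-15). Of 23 genes of amino acid synthesis and transport, 17 rose and 3 fell, with a median log2 difference of 0.47. Of 26 stress regulators on the list, 22 rose and 2 fell, 11 rose at least 2-fold, and the median was 0.91. That list is not one of ATF4 targets only: it holds ATF4 itself and the upstream eIF2 kinases EIF2AK1, EIF2AK2, EIF2AK3 and EIF2AK4. ASNS, asparagine synthetase, went from 133 and 134 CPM to 418 and 423 CPM, 3.15-fold higher (adjusted p = 1.6e-23). CTH, which makes cysteine, was 2.84-fold higher (13.6 and 14 against 40.2 and 38.4 CPM). PCK2, the mitochondrial carboxykinase, was 2.04-fold higher, MTHFD2 of mitochondrial folate metabolism 1.87-fold and the cystine carrier SLC7A11 1.85-fold. ATF3, a stress-induced transcription factor, rose from 16.3 and 15.7 CPM to 50.3 and 52.8 CPM, 3.21-fold (adjusted p = 4.3e-18). CHAC1, which degrades glutathione, went from 6.75 and 6.26 CPM to 31.2 and 30.8 CPM. SESN2, a leucine sensor that restrains mTORC1, was 4.52-fold higher (11.6 and 11.5 against 53.3 and 51.0 CPM), and DDIT3, the factor CHOP, 2.45-fold higher. The phosphatase cofactors PPP1R15A and PPP1R15B, which reverse the phosphorylation of eIF2 upstream of ATF4, were 2.11-fold and 2.00-fold higher. The 2 regulators that fell were VLDLR, described above, and ATF5, a relative of ATF4, which went from 71.7 and 75.0 CPM to 48.7 and 48.5 CPM (1.51-fold lower; adjusted p = 3.0e-12). Among the amino acid genes SLC43A1, a carrier, fell by 0.32 on the log2 scale (adjusted p = 0.0020). ASNS was at 200 and 204 CPM, CHAC1 at 11.5 and 10.6 CPM and SESN2 at 24.9 and 24.4 CPM in the libraries labelled RNF2 shRNA2; of the 26 regulators, 21 were higher in RNF2 shRNA1 than there (29.2% of all genes were) and 4 lower (29.9%).

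Promoters of 3 genes of this programme are shown because they hold the C/EBP-ATF response element, the kind of site that ATF4 binds. Each gene is represented by 1 promoter, the first listed for its symbol, so any other start of these genes was not searched. It was searched as TGATGNAA, or TTNCATCA on the other strand, in the 250 bases before the start (RefSeq, GRCh38.p14), where 3.14% of the 35114 promoters in the table and 1.59% of 12056 genes tested held it. Among the 22 stress regulators with a promoter 4 held it, or 18.2%: ATF3, CHAC1, FGF21 and PPP1R15B. Of those 4, 3 rose and 0 fell. Among 16 amino acid genes 1 held it, ASNS. Over all 192 genes tested that held it, 74 rose and 54 fell, with a median log2 difference of 0.034. Of all genes tested, 26.2% rose and 28.6% fell. Each sequence runs 5′ to 3′ toward the gene and capitals mark the element, at position -68 in ASNS (chr7:97872409-97872658, minus strand), -209 in CHAC1 (chr15:40953221-40953470, plus strand) and -191 in ATF3 (chr1:212565157-212565406, plus strand).
ASNS: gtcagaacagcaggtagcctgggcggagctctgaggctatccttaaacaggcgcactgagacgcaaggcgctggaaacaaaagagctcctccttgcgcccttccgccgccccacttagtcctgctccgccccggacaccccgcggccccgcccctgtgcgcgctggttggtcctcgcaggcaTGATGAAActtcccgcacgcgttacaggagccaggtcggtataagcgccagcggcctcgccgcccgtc
CHAC1: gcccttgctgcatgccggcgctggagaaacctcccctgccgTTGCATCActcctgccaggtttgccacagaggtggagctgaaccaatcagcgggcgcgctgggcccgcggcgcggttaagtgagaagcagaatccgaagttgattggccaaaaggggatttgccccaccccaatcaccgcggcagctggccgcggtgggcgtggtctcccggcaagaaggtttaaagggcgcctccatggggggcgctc
ATF3: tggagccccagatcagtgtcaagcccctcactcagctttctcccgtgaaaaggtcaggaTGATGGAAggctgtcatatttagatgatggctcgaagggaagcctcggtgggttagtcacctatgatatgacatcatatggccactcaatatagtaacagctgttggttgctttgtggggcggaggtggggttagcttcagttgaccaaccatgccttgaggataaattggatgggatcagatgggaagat
CHAC1 carries the element in the opposite orientation to the other two. A match describes these letters only and does not show that the factor was bound.

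Among tRNA synthetases, which charge tRNAs with amino acids, more cytosolic enzymes rose than fell and more mitochondrial enzymes fell than rose. Of 20 cytosolic enzymes 13 rose and 5 fell, with a median log2 difference of 0.16. AARS1 for alanine was at 282 and 280 CPM in Scramble and at 454 and 464 CPM in RNF2 shRNA1, 1.63-fold higher (adjusted p = 1.5e-16), and GARS1 for glycine was 1.60-fold higher (190 and 189 against 301 and 304 CPM). Of 17 mitochondrial enzymes 2 rose and 11 fell, with a median of -0.15; with the pairs summed 7 fell. CARS2, for cysteine in mitochondria, went from 25.4 and 25.4 CPM to 12.2 and 11.8 CPM, 2.12-fold lower (adjusted p = 6.5e-14).

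Genes of DNA replication and of entry into S phase were lower in the RNF2 shRNA1 libraries almost without exception. Of 44 genes tested 43 fell and 0 rose, with a median log2 difference of -0.62, and 42 fell with the pairs summed. The exception was CCND1, cyclin D1, at 441 and 434 CPM in Scramble and at 441 and 435 CPM in RNF2 shRNA1 (log2 difference 0.00, SE 0.027; adjusted p = 0.94). MYBL2, a transcription factor of the cell cycle, was at 181 and 183 CPM in Scramble and at 74.3 and 78.3 CPM in RNF2 shRNA1, 2.39-fold lower (SE 0.034; adjusted p = 1.3e-19). The replicative helicase subunits MCM2, MCM3 and MCM4 were 1.67-fold, 1.77-fold and 1.86-fold lower; MCM3, for one, went from 311 and 307 CPM to 173 and 176 CPM. TYMS, which makes thymidylate, fell from 270 and 268 CPM to 168 and 168 CPM (1.60-fold), and FEN1, the flap endonuclease, fell 1.72-fold. Values of 5 further genes were chosen after they were seen. CCNE1 and CCNE2, the E cyclins that drive the G1 to S step, were 2.40-fold and 2.85-fold lower (CCNE2, 25 and 24.1 against 8.21 and 9.04 CPM; adjusted p = 2.9e-15). E2F1 and E2F2, activating E2F factors, were 1.53-fold and 2.42-fold lower (E2F2, 22.9 and 24.6 against 9.77 and 9.85 CPM; adjusted p = 1.2e-13). POLA1, the catalytic subunit of the polymerase that primes replication, was 2.08-fold lower (66.8 and 66.5 against 32.0 and 32.2 CPM; adjusted p = 3.5e-15). At CCND1 the groups overlapped. Against the libraries labelled RNF2 shRNA2, 42 of the 44 were lower in RNF2 shRNA1 (29.9% of all genes were) and 0 higher; MYBL2 stood at 130 and 135 CPM there, MCM3 at 301 and 297 CPM and POLA1 at 73.2 and 67.8 CPM.

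Promoters of 3 replication genes are shown because they hold an E2F site, the motif bound by the factors that control this programme. The site was searched as TTTNGCGC, or GCGCNAAA on the other strand, in the same 250 bases. It was found in 1.51% of all promoters in the table, in 2.28% of the 12056 genes tested and in 10 of 37 replication genes with a promoter (27%). Those 10, CDT1, E2F1, E2F2, MCM6, MCM7, ORC6, POLA1, POLA2, POLE and POLE2, all fell. But 43 of the 44 genes tested on that list fell, so their fall does not set them apart from members without the site. Over all genes tested that held the site, 275 in number, 79 rose and 101 fell, with a median log2 difference of -0.055. Of all genes tested, with or without a promoter in the table, 26.2% rose and 28.6% fell. Capitals mark the site, at position -20 in E2F1 (chr20:33686386-33686635, minus strand), -42 in E2F2 (chr1:23531234-23531483, minus strand; 2 matches that overlap, one on each strand) and -137 in POLA1 (chrX:24693668-24693917, plus strand; the match is on the other strand).
E2F1: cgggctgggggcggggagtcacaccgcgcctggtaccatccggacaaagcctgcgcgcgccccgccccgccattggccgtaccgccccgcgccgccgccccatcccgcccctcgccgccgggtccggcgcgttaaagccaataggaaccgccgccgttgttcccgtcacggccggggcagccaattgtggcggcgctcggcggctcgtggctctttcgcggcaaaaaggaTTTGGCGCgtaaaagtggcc
E2F2: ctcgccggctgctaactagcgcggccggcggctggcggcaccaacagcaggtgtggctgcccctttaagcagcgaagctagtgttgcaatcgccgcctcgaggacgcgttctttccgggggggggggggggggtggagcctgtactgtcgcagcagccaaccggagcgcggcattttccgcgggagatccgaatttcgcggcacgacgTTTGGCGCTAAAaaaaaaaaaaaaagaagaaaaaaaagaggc
POLA1: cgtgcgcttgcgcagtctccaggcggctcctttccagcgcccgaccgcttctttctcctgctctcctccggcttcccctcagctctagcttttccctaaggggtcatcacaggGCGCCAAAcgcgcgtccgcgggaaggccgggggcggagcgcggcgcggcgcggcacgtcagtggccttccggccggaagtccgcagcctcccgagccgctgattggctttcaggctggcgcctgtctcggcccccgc
These letters were also found in 1 of 32 mitosis genes with a promoter, NUSAP1, which was higher, and in 2 of 22 repair genes, XRCC6, which was lower, and CHEK2, which was higher.

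More genes of mitosis rose than fell, by small amounts. Of 38 tested, 27 rose and 6 fell, with a median log2 difference of 0.16 and no change of 2-fold; with the pairs summed 18 rose and 1 fell. AURKA, a kinase of the spindle poles, was at 197 and 196 CPM in Scramble and at 258 and 262 CPM in RNF2 shRNA1, 1.32-fold higher (SE 0.028; adjusted p = 9.4e-12). BUB1, a kinase of the spindle checkpoint, was 1.37-fold higher (168 and 171 against 234 and 228 CPM), KIF2C, a motor of the centromere, 1.38-fold (115 and 112 against 156 and 157 CPM) and CENPA, the centromeric histone, 1.38-fold. FOXM1, a transcription factor of the G2 phase named after its value was seen, was 1.20-fold lower (adjusted p = 1.1e-07). The difference from the libraries labelled RNF2 shRNA2 was wider: 30 of the 38 were higher in RNF2 shRNA1 (29.2% of all genes were) and 3 lower (29.9%). AURKA was at 142 and 142 CPM in the libraries labelled RNF2 shRNA2. Of 11 inhibitors of cyclin-dependent kinases and retinoblastoma proteins, 4 rose and 4 fell. CDKN1B, the inhibitor p27, went from 48.4 and 48.9 CPM to 81.3 and 78.0 CPM, 1.64-fold higher (adjusted p = 4.5e-13); CDKN1A, the inhibitor p21, was 1.29-fold higher (16 and 14.5 against 19.8 and 19.5 CPM; adjusted p = 2.0e-05); CDKN2C, the inhibitor p18, fell by 0.48 on the log2 scale.

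DNA repair genes fell with the replication genes, 25 of 27 lower and 2 higher, with a median log2 difference of -0.45. PARP1, a sensor of strand breaks, was at 739 and 728 CPM in Scramble and at 490 and 482 CPM in RNF2 shRNA1, 1.51-fold lower (SE 0.025; adjusted p = 6.5e-16). UNG, which removes uracil from DNA, fell from 189 and 190 CPM to 113 and 115 CPM, 1.66-fold. CLSPN, a mediator of the replication checkpoint, fell 2.15-fold. The 2 that rose were the checkpoint kinases ATM, named after its value was seen (117 and 115 against 163 and 165 CPM; 1.41-fold, adjusted p = 2.2e-10), and CHEK2 (1.10-fold, adjusted p = 0.0066; not called with the pairs summed, adjusted p = 0.15).

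**Figure D3:**
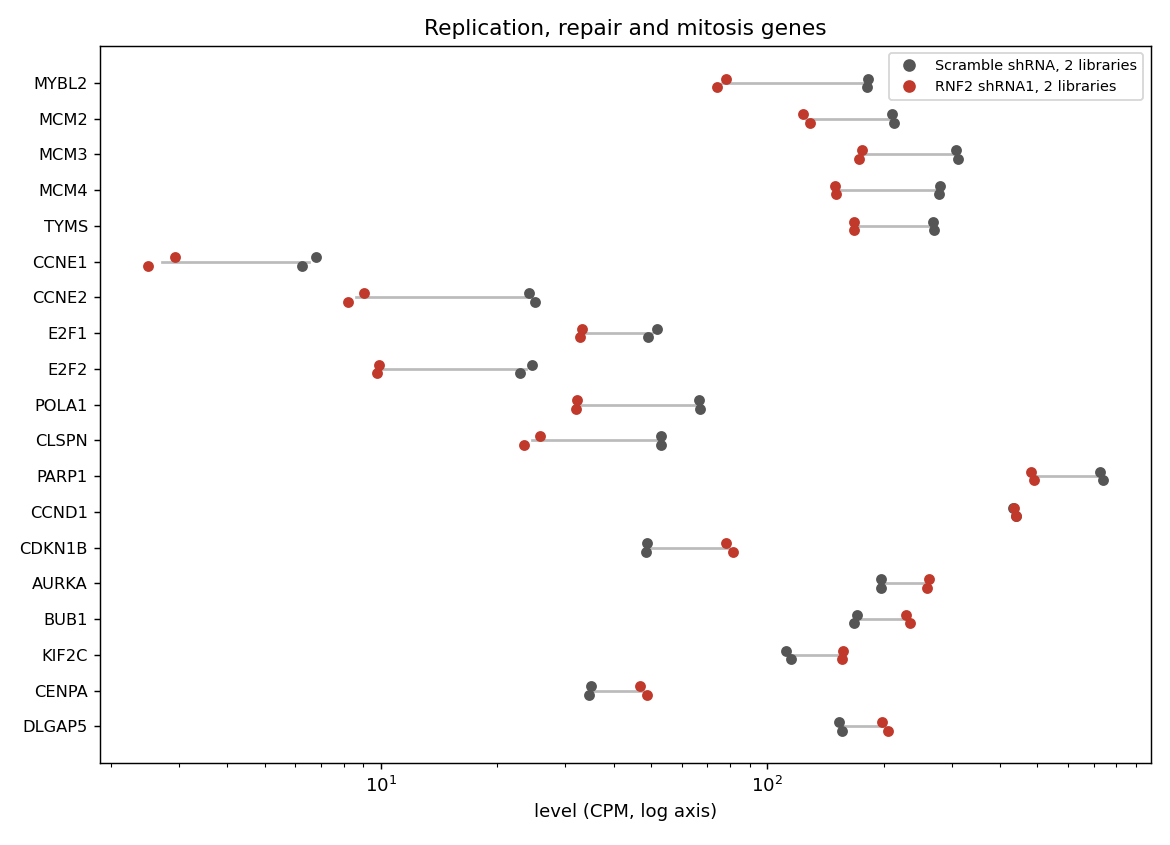
Level (CPM, log axis) of 19 replication, repair and mitosis genes in the 2 Scramble libraries (grey) and the 2 RNF2 shRNA1 libraries (red), 1 point per library, with a line between the group means. From MYBL2 to PARP1 the red points lie to the left of the grey ones, at CCND1 they coincide, and from CDKN1B to DLGAP5 they lie to the right.

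Enzymes of glycolysis were lower in the RNF2 shRNA1 libraries. Of 24 genes tested 20 fell and 1 rose, with a median log2 difference of -0.50. LDHA, lactate dehydrogenase A, was at 3241 and 3245 CPM in Scramble and at 1740 and 1740 CPM in RNF2 shRNA1, 1.86-fold lower (SE 0.021; adjusted p = 8.0e-21). SLC2A1, the glucose carrier GLUT1, went from 119 and 121 CPM to 59.1 and 61.0 CPM, 2.00-fold lower. PFKFB4, a regulator of flux through glycolysis, was 2.63-fold lower (33.6 and 32.9 against 12.1 and 13.2 CPM; adjusted p = 8.3e-17). Abundant enzymes moved by less: ENO1, enolase, was 1.41-fold lower, PKM, pyruvate kinase, 1.42-fold and ALDOA, aldolase A, 1.44-fold. ALDOC, a second aldolase and the 1 that rose, was named after its value was seen (27.8 and 27.9 against 41.8 and 42.4 CPM; 1.51-fold higher, adjusted p = 3.8e-10). Of 20 hypoxia genes, targets of HIF factors, 13 fell and 4 rose. CA9, carbonic anhydrase 9, was at 113 and 110 CPM in Scramble and at 53.7 and 54.8 CPM in RNF2 shRNA1, 2.06-fold lower. BNIP3, a mitophagy receptor, was 2.11-fold lower and P4HA2, a collagen prolyl hydroxylase, 2.12-fold lower. VEGFA, the vascular growth factor, went against them, from 75.0 and 75.8 CPM to 112 and 112 CPM (1.49-fold higher; adjusted p = 2.6e-13). LDHA was at 2938 and 2979 CPM, SLC2A1 at 116 and 113 CPM and CA9 at 135 and 123 CPM in the libraries labelled RNF2 shRNA2.

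Of 30 subunits of the proteasome, which degrades ubiquitinated proteins, 29 fell and 0 rose, by at most 1.56-fold, with a median log2 difference of -0.35; with the pairs summed 21 were lower. PSMD2, a subunit of the base of the regulatory particle, was at 564 and 544 CPM in Scramble and at 352 and 358 CPM in RNF2 shRNA1, 1.56-fold lower (adjusted p = 8.9e-16), and PSMA7, of the core ring, was 1.39-fold lower. PSMD8 was the member not called (adjusted p = 0.12). Cytosolic and mitochondrial chaperones of the heat shock class had 15 lower and 3 higher of 21, and 9 lower with the pairs summed. BAG3, a cochaperone of selective autophagy, fell by 0.58 on the log2 scale (210 and 214 against 143 and 140 CPM), and DNAJB4, a J-domain cochaperone, 2.14-fold higher (21.2 and 21.5 against 45.5 and 46.0 CPM). Of 24 genes of the endoplasmic reticulum, 11 rose and 6 fell: HSPA5, the chaperone BiP, went from 1061 and 1067 CPM to 1657 and 1679 CPM (1.57-fold higher; adjusted p = 1.8e-17) and HERPUD1, a factor of protein degradation there, was 2.15-fold higher.

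**Figure D4:**
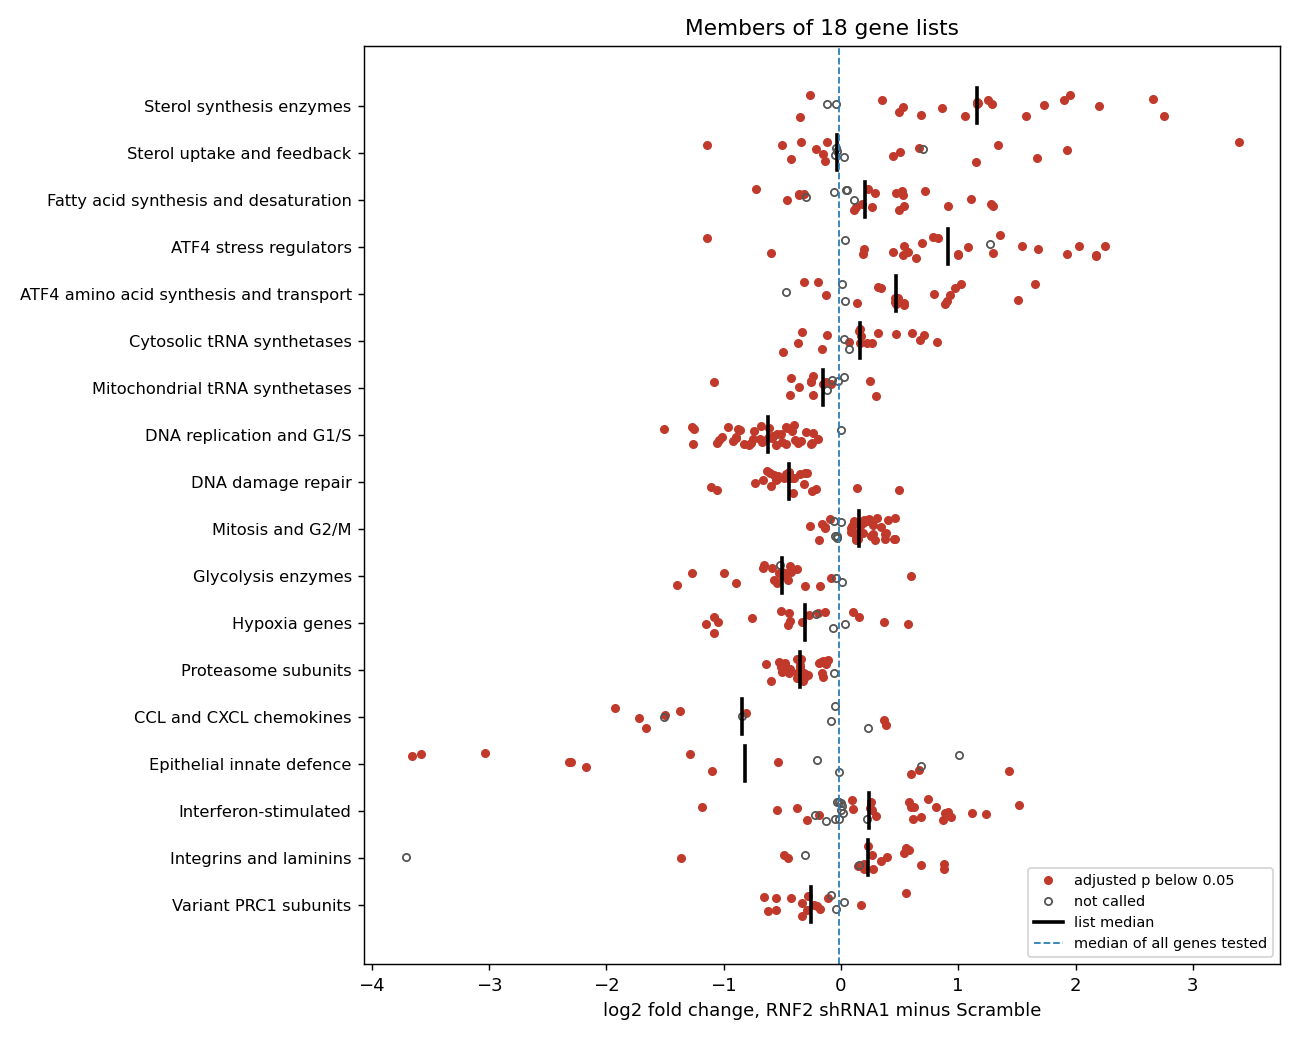
Log2 fold change of RNF2 shRNA1 minus Scramble for each member of 18 gene lists (1 point per gene; red, adjusted p below 0.05; open, not called), with the list median as a black bar and the median of all genes tested, -0.015, as a dashed line. Medians ran from -0.85 for chemokines to 1.16 for sterol synthesis enzymes, and the mitosis list lay on the other side of the dashed line from the replication list.

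Chemokines fell more often than they rose, 6 lower and 2 higher of 13 tested. CCL2 was at 14.6 and 14.8 CPM in Scramble and at 4.31 and 3.38 CPM in RNF2 shRNA1, 3.81-fold lower (log2 difference -1.93, SE 0.11; adjusted p = 3.3e-13). It was at 13.5 and 13.1 CPM in the libraries labelled RNF2 shRNA2, at 5.49 and 4.30 CPM with PRT4165 and at 4.82 and 4.74 CPM with GW-516. CXCL1, which attracts neutrophils, fell from 36.7 and 36.8 CPM to 11.4 and 11.8 CPM, 3.17-fold (adjusted p = 2.1e-17). CXCL16, a ligand of CXCR6, was 1.76-fold lower than in Scramble (20.9 and 20.7 against 12.2 and 11.4 CPM) and was not called different from the libraries labelled RNF2 shRNA2 (11.5 and 10.4 CPM; log2 difference 0.12, SE 0.079, adjusted p = 0.22). CXCL8, interleukin 8, went the other way, from 45.0 and 43.9 CPM to 57.2 and 59.1 CPM, 1.31-fold higher (adjusted p = 1.4e-08). Thus the 2 neutrophil chemokines CXCL1 and CXCL8 lay on opposite sides of Scramble in the same libraries.

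Interleukin genes were divided, 11 higher and 9 lower of 27. LIF, a cytokine of the interleukin 6 family, was at 22.5 and 21.3 CPM in Scramble and at 51.8 and 53.5 CPM in RNF2 shRNA1, 2.40-fold higher (adjusted p = 4.8e-16). IL18 was 2.26-fold higher (40.1 and 40.7 against 91.6 and 91.1 CPM) and IL1B 1.86-fold higher (45.7 and 48.0 against 85.0 and 89.1 CPM). IL4R, the receptor chain for interleukin 4, fell from 14.5 and 14.2 CPM to 5.44 and 5.22 CPM, 2.70-fold (adjusted p = 3.9e-14). Of 20 genes of NF-kB subunits and feedback, 10 rose and 5 fell. RELB, a subunit of the alternative pathway, was 2.43-fold higher (5.96 and 5.75 against 14.5 and 13.9 CPM), BIRC3, an inhibitor of apoptosis, 2.15-fold and TNFAIP3, a feedback deubiquitinase, 2.22-fold, whereas TNFAIP2 was 3.74-fold lower at a low level (3.95 and 3.51 against 1.11 and 0.873 CPM). Of 36 interferon-stimulated genes, 20 rose and 5 fell. Against the libraries labelled RNF2 shRNA2, 14 were higher in RNF2 shRNA1 and 14 lower, with a median log2 difference of 0.034. DDX60, a helicase of antiviral sensing, was at 85.8 and 86.0 CPM in Scramble and at 245 and 245 CPM in RNF2 shRNA1, 2.86-fold higher (adjusted p = 1.5e-20), OASL, a relative of the oligoadenylate synthetases, was 2.36-fold higher and ISG20, an exonuclease, 2.17-fold higher.

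Genes of epithelial innate defence included some of the largest decreases; 9 of 16 fell, 8 of them at least 2-fold, and 3 rose. LCN2, a protein that binds bacterial siderophores, was at 106 and 109 CPM in Scramble and at 8.14 and 8.93 CPM in RNF2 shRNA1, 12.6-fold lower (adjusted p = 1.4e-18). It was at 8.61 and 6.96 CPM in the libraries labelled RNF2 shRNA2, so both hairpin groups lay below all other libraries. The protease inhibitors PI3 and SLPI fell 8.20-fold and 2.44-fold (SLPI, 101 and 101 against 41.7 and 41.1 CPM). C3, the central complement protein, fell from 14.4 and 13.9 CPM to 2.89 and 2.85 CPM, 4.94-fold, and TLR4, the receptor for endotoxin, from 9.31 and 10.3 CPM to 2.00 and 2.37 CPM, 4.50-fold. CD55 and CD59, which protect cells from complement, rose: CD55 from 860 and 856 CPM to 1358 and 1371 CPM (1.59-fold; adjusted p = 3.4e-17) and CD59 from 380 and 381 CPM to 578 and 572 CPM (1.51-fold).

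Growth factor lists were divided: in the EGF receptor family and its ligands 6 of 13 rose and 4 fell, among fibroblast growth factors and receptors 5 of 13 rose and 2 fell (median log2 difference 0.02), and in the TGF-beta class 12 of 32 rose and 10 fell (median 0.00). ERRFI1, a feedback inhibitor of the EGF receptor, was at 721 and 714 CPM in Scramble and at 2479 and 2513 CPM in RNF2 shRNA1, 3.48-fold higher (SE 0.025; adjusted p = 1.4e-25). FGFBP1, which releases fibroblast growth factors from the matrix, went from 41.8 and 41.9 CPM to 196 and 201 CPM, 4.74-fold higher (adjusted p = 1.3e-23), against 26.4 and 25.5 CPM in the libraries labelled RNF2 shRNA2. CCN1, a matricellular protein and target of YAP, was 4.43-fold higher (50.8 and 50.6 against 221 and 229 CPM), and CCN2, its relative, 1.93-fold higher. Of 18 genes of YAP and TEAD 12 rose and 3 fell. Of 22 genes of MAP kinase feedback 13 rose and 3 fell: the ERK phosphatase DUSP5 was 4.11-fold higher (49.6 and 50.7 against 210 and 202 CPM), SPRY2, an inhibitor of receptor signalling, 2.15-fold higher and PHLDA1, an immediate response gene, 1.71-fold higher, whereas SPRY4 was 1.17-fold lower (adjusted p = 1.8e-05). PMAIP1, the death protein NOXA, and MCL1, the survival protein it binds, both rose, PMAIP1 from 150 and 149 CPM to 461 and 454 CPM (3.07-fold; adjusted p = 1.4e-19) and MCL1 from 293 and 286 CPM to 479 and 482 CPM (1.66-fold). SMAD3, which carries TGF-beta signals, was 1.61-fold higher (152 and 159 against 252 and 246 CPM). Members of these lists that fell were the ligand NRG2 (16 and 15.6 against 11.6 and 11.4 CPM; 1.38-fold lower), the receptor FGFR1 (92.5 and 92.4 against 76.5 and 77.1 CPM; 1.20-fold lower) and the ligand TGFB3 (37.9 and 37.1 against 22.7 and 22.7 CPM; 1.65-fold lower).

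Angiogenic factors had 10 higher and 8 lower of 23. ANGPTL4, a lipase inhibitor induced by hypoxia and PPAR receptors, was at 35.6 and 37.9 CPM in Scramble and at 6.53 and 6.33 CPM in RNF2 shRNA1, 5.71-fold lower (adjusted p = 9.8e-18). ANGPT1, the activating ligand of the receptor TIE2, fell from 3.66 and 4.17 CPM to 0.293 and 0.374 CPM, 11.7-fold (adjusted p = 6.8e-14), and APLN, the peptide apelin, from 29.1 and 28 CPM to 8.08 and 6.84 CPM, 3.82-fold. These 3 were not low in the compound libraries, where ANGPTL4 was at 97.4 and 109 CPM with PRT4165 and at 184 and 187 CPM with GW-516. UTS2, the vasoactive peptide urotensin 2, was 7.77-fold higher (2.36 and 2.63 against 19.4 and 19.3 CPM), and THBS1, an inhibitor of vessel growth, 1.98-fold higher. IGF2, an insulin-like growth factor, fell from 2.15 and 2.80 CPM to 0.220 and 0.0935 CPM, near the detection limit, and was as low in the libraries labelled RNF2 shRNA2 (0.129 and 0.0840 CPM).

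**Figure D5:**
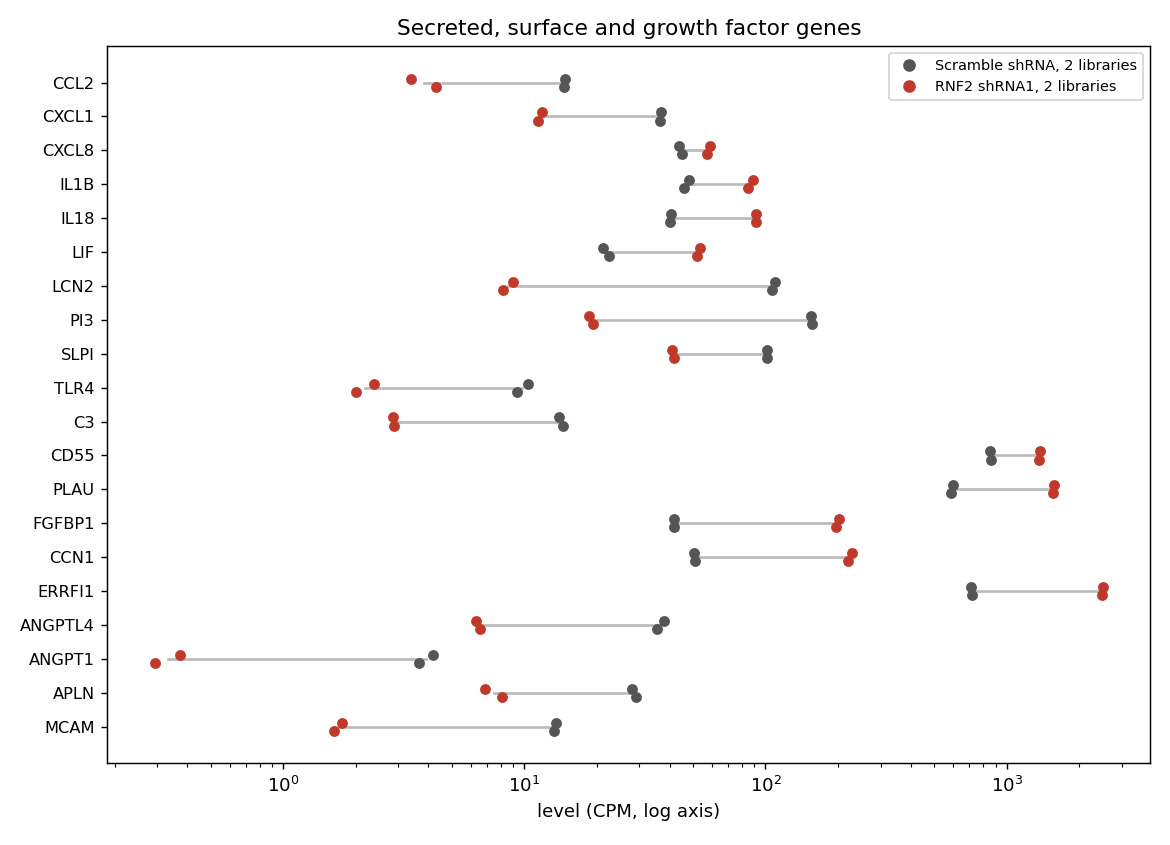
Level (CPM, log axis) of 20 genes of secreted, surface and growth factor proteins in the 2 Scramble libraries (grey) and the 2 RNF2 shRNA1 libraries (red), 1 point per library, with a line between the group means. CXCL1 and CXCL8 moved in opposite directions, as did C3 and CD55.

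Of 21 integrin and laminin genes 15 rose and 3 fell, whereas matrix and junction lists were divided. Of 13 cadherins and catenins 5 rose and 6 fell, and of 17 genes of desmosomes, the cornified envelope and tight junctions 5 rose and 8 fell. PLAU, the protease urokinase, was at 590 and 600 CPM in Scramble and at 1555 and 1569 CPM in RNF2 shRNA1, 2.63-fold higher (adjusted p = 4.5e-22), and SERPINE2, a serpin that inhibits it, was 1.60-fold higher. SERPINB5, the serpin maspin, fell from 140 and 136 CPM to 78.5 and 79.4 CPM, 1.75-fold (adjusted p = 1.4e-15). The laminin chain LAMA3, part of basement membranes, was 1.84-fold higher (143 and 150 against 269 and 269 CPM), and the integrin chain ITGB4, which binds such laminins, was 1.47-fold higher. COL1A2, a chain of collagen I, fell from 253 and 248 CPM to 145 and 149 CPM, 1.71-fold (adjusted p = 2.6e-16), and COL6A2, a chain of collagen VI, 1.69-fold; of 25 collagen and fibronectin genes 8 rose and 11 fell. MCAM, an adhesion molecule of the immunoglobulin family, was 7.97-fold lower (13.3 and 13.6 against 1.63 and 1.75 CPM). CGN, cingulin of tight junctions, was 3.02-fold lower and CDH11, a mesenchymal cadherin, 4.62-fold lower at a low level (5.65 and 4.41 against 1.03 and 1.15 CPM). CDH11 was lower still in the other groups. It was at 0.887 and 0.728 CPM in the libraries labelled RNF2 shRNA2, at 0.391 and 0.548 CPM with PRT4165 and at 0.613 and 0.64 CPM with GW-516. PPL, the cornified envelope protein periplakin, was 1.71-fold higher (12.5 and 12.2 against 21.4 and 20.8 CPM), and CDH2, N-cadherin, 1.18-fold higher. Of 16 factors and markers of the epithelial to mesenchymal transition and its counterparts 9 rose and 3 fell. EHF, an epithelial ETS factor, fell from 23.4 and 21.4 CPM to 6.04 and 6.16 CPM, 3.67-fold (adjusted p = 1.6e-15), and ESRP2, an epithelial splicing factor, 1.42-fold. Vimentin, a mesenchymal marker, rose 1.37-fold, and EPCAM, an epithelial adhesion molecule, rose 1.15-fold (177 and 184 against 206 and 210 CPM; adjusted p = 6.0e-06). GALNT3, which starts mucin-type glycosylation, was 3.28-fold higher (15.2 and 15.3 against 50.1 and 49.8 CPM) and the mucin MUC13 2.38-fold higher.

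Among developmental genes that Polycomb complexes are known to occupy, fewer rose than fell, and most were not called. Of 57 such factors outside the HOX clusters 10 rose and 16 fell, with a median log2 difference of -0.22, and of 18 HOX genes 2 rose and 6 fell. SOX21, a neural and epithelial factor, did rise, from 15.4 and 16.3 CPM to 57.0 and 55.5 CPM, 3.55-fold (adjusted p = 1.2e-18), and RUNX2, a bone factor, rose 1.97-fold (7.91 and 8.50 against 15.8 and 16.6 CPM). DLX3, a factor of skin and bone, fell 2.89-fold (6.68 and 7.18 against 2.19 and 2.62 CPM). The prostate factors HOXB13 and FOXA1 fell 1.45-fold and 1.39-fold; HOXB13 was at 487 and 478 CPM in Scramble, at 333 and 333 CPM in RNF2 shRNA1 and at 340 and 354 CPM in the libraries labelled RNF2 shRNA2. Of 14 luminal prostate genes 9 fell and 2 rose, among them SLC45A3, the prostate antigen prostein, 1.79-fold lower (21.4 and 21.2 against 11.9 and 11.8 CPM). Stemness markers had 8 higher and 8 lower of 20. ALDH1A3, an aldehyde dehydrogenase, rose from 786 and 786 CPM to 1688 and 1665 CPM, 2.13-fold (adjusted p = 9.6e-22), while NES, nestin, fell 1.63-fold (759 and 749 against 459 and 467 CPM) and LGR5, a Wnt coreceptor, 3.73-fold at a low level. Of 46 chromatin modifiers outside Polycomb 22 rose and 12 fell: KDM7A, a histone demethylase, was 3.44-fold higher (15.2 and 16.1 against 53 and 54.5 CPM; adjusted p = 1.4e-18) and DNMT1, which maintains DNA methylation, 1.47-fold lower (423 and 414 against 284 and 285 CPM).

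Smaller lists gave mixed counts. Of 8 replication-dependent histone genes tested 7 rose and 0 fell, with a median log2 difference of 1.05. H1-2, a linker histone, went from 10.8 and 10.0 CPM to 33.0 and 32.4 CPM, 3.13-fold higher (adjusted p = 2.1e-17), and H2AC6, a core histone, was 2.80-fold higher; most such messages end in a stem-loop in place of a poly(A) tail, the libraries were made with an mRNA kit, and histone genes have near-identical copies, so their values are uncertain. Of 12 metallothionein and zinc genes 4 rose and 6 fell, and of 12 iron genes 3 rose and 5 fell. The metallothionein MT1X fell 2.81-fold (7.61 and 7.28 against 2.41 and 2.90 CPM), with the same caution about copies, and SLC39A10, a zinc importer, rose from 151 and 152 CPM to 320 and 313 CPM, 2.09-fold. FTH1, the ferritin heavy chain that stores iron, rose from 3620 and 3658 CPM to 5632 and 5637 CPM, 1.55-fold (adjusted p = 1.1e-05). TFRC, the transferrin receptor that imports iron, fell 1.23-fold (1047 and 1047 against 850 and 860 CPM). Of 10 genes of the aryl hydrocarbon receptor 4 rose and 0 fell, a share of 40% called against 54.7% of all genes: AHR itself was 1.59-fold higher, its target CYP1B1 1.83-fold and its feedback gene TIPARP 1.89-fold (110 and 114 against 214 and 209 CPM). Of 18 clock genes 11 rose and 3 fell, with PER1, a repressor of the clock, 2.09-fold higher (21.1 and 20.5 against 43.8 and 43.2 CPM).

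Among long non-coding RNAs, LINC02015 had the largest decrease of all genes ranked. It lies at chr3:177534653-177617012 on the plus strand (GRCh37, as in the deposited tables) and was at 12.9 and 12.8 CPM in Scramble and at 0.557 and 0.312 CPM in RNF2 shRNA1, 29.2-fold lower (SE 0.17; adjusted p = 3.3e-17). The libraries labelled RNF2 shRNA2 had 0.744 and 0.980 CPM of it, and the compound libraries 4.88 to 9.11 CPM. DANCR, at chr4:53578597-53586518 and known to host small nucleolar RNAs, fell from 83.0 and 83.8 CPM to 30.8 and 30.2 CPM, 2.74-fold (adjusted p = 8.5e-14). It was at 69.2 and 59.0 CPM in the libraries labelled RNF2 shRNA2. Among coding genes outside the lists, ENOPH1, an enzyme of methionine salvage, fell 3.02-fold (78.9 and 75.8 against 25 and 26.2 CPM), RELN, the matrix protein reelin, rose 5.82-fold (8.62 and 9.62 against 54.0 and 52.0 CPM) and ANPEP, a membrane aminopeptidase, rose 3.61-fold (40.1 and 39.0 against 144 and 141 CPM).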

How the data were processed

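RNA of PC3 cells was sequenced as stranded paired-end mRNA libraries. The deposited values were raw counts per gene, made with featureCounts 1.4.3-p1 against GENCODE 18 with strand option 2 and no option for pairs, per the file headers, so both mates of a pair were counted. STAR, DESeq2 1.8.1 and hg19 (GRCh37) are named per the submitters' processing notes. Counts of 18478 genes, kept by filterByExpr with a minimum count of 10, were fitted over all 10 libraries with edgeR 4.0.16 (TMM, quasi-likelihood test, Benjamini-Hochberg adjustment, R 4.3.3, limma 3.58.1), with adjusted p below 0.05 as the threshold for a call. The fit had 5 residual degrees of freedom. On simulated counts of 17897 genes for this comparison, 70% of genes changed 2-fold, 44% of those changed 1.25-fold and 0.0791% of unchanged genes were called. The simulation drew counts with the spread fitted to these libraries and left 17702 genes unchanged. It therefore does not show what share of the calls in the data was false. DESeq2 1.42.0 served as an alternative, and sums and searches were made in Python 3.11.15.

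Symbols were matched for 89.6% of 57445 identifiers. Named genes are RNF2, RING1, BMI1, EZH2, INSIG1 and CCL2, the 30 largest changes each way, all members of some lists and 5 long non-coding RNAs each way. From each other list, up to 6 members with the smallest adjusted p and up to 2 with the largest were taken, called or not. Further genes are said to be chosen after their values were seen. The comparison and the lists were chosen with earlier results of these data known. Replicate numbers did not pair the libraries: deviations of same-numbered Scramble and RNF2 shRNA1 libraries correlated at -0.0142 over 13104 genes. Genes with near-identical copies, such as histone, keratin and metallothionein genes, are uncertain. Promoters came from RefSeq (GRCh38.p14), with 1113 of 1417 listed symbols matched, and gene coordinates from the deposited tables. Counts of genes with a motif used the first promoter listed for each symbol. Some listed genes are not reported here.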

Additional observations from a re-analysis of the deposited data

How the results depend on the processing

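The 10112 calls numbered 10104 with RLE size factors, 9385 with DESeq2, 9921 with no filter on low counts and 9401 with a filter of 1 CPM in 2 libraries. The share of calls that were higher was 47.8%, and 50.1% with RLE size factors. The replicate number as a block gave 9992 calls (4774 higher, 5218 lower), and fitting the 2 groups alone gave 5407 higher and 5511 lower. Leaving out 1 library of either group gave 4134 to 4356 higher and 4338 to 4550 lower genes; the lone library is then assumed to vary like the other groups. With a change of at least 2-fold required, 801 genes were higher and 782 lower. At that size of change the counts were 400 higher and 432 lower with the filter of 1 CPM, which tests fewer genes, and 582 and 596 with the pairs summed. With the pairs summed, counts of list members called fell by over 1.5 times for these lists also: 1 higher CBX or PHC subunit, 1 lower amino acid gene, 3 lower cytosolic tRNA synthetases, 1 higher repair gene, 2 higher hypoxia genes, 1 higher chaperone, 1 higher chemokine, 3 lower NF-kB genes, 3 lower interferon genes, 5 lower stemness markers, 7 lower chromatin modifiers, 1 higher HOX gene, 1 lower clock gene, 3 higher and 3 lower cadherins and catenins, 1 higher zinc gene, 3 lower iron genes, 6 higher Wnt genes, and 4 higher and 1 lower ribosomal protein genes. Among genes named and called, those that lost the call under at least 1 alternative were BMI1 (also with RLE size factors and without any single library of the 2 groups) and CHEK2 (with the pairs summed only), and no called gene changed direction. The small differences of 2 genes not called changed sign: EBP ranged from -0.117 to 0.065 when 1 library was left out, and CCND1 from -0.008 to 0.031. Of genes under 1 CPM 20.4% were called; the part of depth in this was not tested.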

Other observations

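Other groups measured in the RNF2 shRNA1 libraries moved little or in both directions. Of 43 cytosolic ribosomal protein genes 10 were higher and 4 lower than in Scramble, and of 36 nuclear genes of the respiratory chain 10 were higher and 9 lower. Of 30 lysosome and proton pump genes 12 were higher and 13 lower, and of 27 antioxidant genes of the NRF2 class 13 were higher and 7 lower. Among Notch genes 6 of 19 were higher and 7 lower, and among Wnt genes 10 of 31 were higher and 10 lower.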
